A study of Mus musculus with 18 samples.

Results

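The gastrocnemius and the quadriceps of normal mice were compared, using the libraries that the labels title FVB_WT_Gast and FVB_WT_Quad. These are 6 of the 18 libraries in the series, 3 per muscle, and the 2 muscles with the same replicate number come from the same mouse, so that 3 pairs were available. The study sequenced both muscles of 3 groups of mice, namely WT, HSA-LR, and HSA-LR after Pip6a-PMO, a peptide-conjugated antisense oligonucleotide, to follow the correction of myotonic dystrophy changes. All mice were of the FVB strain and 20 weeks old, and the WT mice are labelled untreated and carry no transgene. HSA-LR mice carry a human skeletal actin transgene, driven by its own promoter, whose transcript holds an expanded CUG repeat in skeletal muscle. The 12 libraries of HSA-LR and treated mice serve here as further pairs of the same muscles and for tests of whether the muscle difference depends on the group of mice. The muscles were sequenced whole, and which of their heads or neighbouring muscles were taken is not given in the sources used here.

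The gastrocnemius is the superficial calf muscle, which extends the ankle, and the quadriceps is the extensor of the knee on the front of the thigh. Both are mixed muscles in which fast fibers predominate in mice. A slow, or type 1, fiber builds its sarcomere from its own set of genes, among them the myosin heavy chain Myh7, the slow troponins Tnnc1, Tnni1 and Tnnt1 and the slow tropomyosin of Tpm3, while fast fibers use Myh2, Myh1 or Myh4 and the fast troponins. Hox genes are transcription factors whose order along a cluster follows their domains along the body and the limb, and cells of adult muscles and connective tissue keep part of that pattern.

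Some of the differences lay within genes rather than between them, and the exon parts they turned on are shown first. The sequences are from GENCODE M21 transcripts on GRCm38, 5′ to 3′ along the gene, and give the first 30 bases of each exon part. In Tpm3, on the plus strand of chromosome 3, the 2 members of each pair are alternatives to each other, and capitals mark the positions at which the members of a pair differ. The exon at chr3:90088401-90088476 (bin 23) and the exon at chr3:90089048-90089123 (bins 27 and 28) are both 76 bases long and differ at 15 of the 30 positions, and 1 annotated transcript holds both. The last exon parts at chr3:90099528-90100896 (bin 40) and at chr3:90091931-90092130 (bin 38) differ at 21 of the 30 positions, and 0 transcripts hold both.
Tpm3 bin 23: CCGTtgCCGAgagAtggaTgaACagAtCaG
Tpm3 bins 27 and 28: TAAGtgTTCTgagCtggaGgaGGagCtGaA
Tpm3 bin 40: ataaactgAAGTGCACCAAAGAGGAGCAtC
Tpm3 bin 38: ataaactgTCACCGTTTCTGCCCTGTTCtG

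For Atp2a2, which encodes the slow and cardiac calcium pump of the sarcoplasmic reticulum, and for Mybpc1, the slow myosin-binding protein C, a single exon part is shown for each, with no capitals because nothing is compared. The Atp2a2 part lies at chr5:122456340-122457302 and the Mybpc1 exon at chr10:88537466-88537519, both on the minus strand.
Atp2a2 bin 4: gtaaagagtgtgtgcagcctgccaccaaat
Mybpc1 bin 17: gtacatcagcaaaacagtctaatgaaaatg

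The deposited values were raw counts for each exon bin, a bin being a stretch of exon between annotated exon ends, and the bins of a gene were summed to give its level. Library totals ran from 124221612 to 143135976 counts in WT gastrocnemius and from 113931962 to 118065480 in WT quadriceps, so that every gastrocnemius library was deeper than every quadriceps library. Levels are given as CPM, each count scaled to a common library size, and differences as the log2 FC of gastrocnemius over quadriceps from edgeR's quasi-likelihood test with the mouse as a block. Skeletal muscle markers summed to 158000 to 184000 CPM in the gastrocnemius and 168000 to 182000 CPM in the quadriceps, and none of the 7 was at 0. The labels call mice 1 and 3 male and mouse 2 female, but 4 Y chromosome genes summed to 153 and 188 CPM in the muscles of mouse 2 and to 1.14 and 1.43 CPM in those of mouse 3. Both muscles of a mouse gave the same pattern, and no comparison below groups mice by sex. With 3 pairs, a p-value measures only how far the muscle difference varied between these mice, with a spread partly shared across genes.

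Of 15108 genes tested, 258 (1.71%) differed between the muscles at an adjusted P under 0.1, the threshold used by the study. The gastrocnemius had the higher level for 188 genes (1.24%) and the quadriceps for 70 genes (0.463%), and all 258 kept 1 direction in the 3 mice. A 2-fold difference was reached by 91 genes higher in gastrocnemius and 43 higher in quadriceps, and a 4-fold difference by 45 and 22. The levels of the muscles did not overlap for 146 of the 188 genes and for 54 of the 70, against 7.43% and 6.35% of all genes tested. The genes were called on these same libraries, so this and the shared direction describe the calls and are no separate support for them. The number of calls changed widely with the mice used, as it was 1065 without mouse 1, 20 without mouse 2 and 64 without mouse 3. Leaving out a mouse also took away 1 of the 3 pairs. The number was 21 when the mouse was not used as a block. At an unadjusted p under 0.05 the edgeR test gave 2088 genes.

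The 12 other libraries, which played no part in these calls, gave the same comparison in mice with the repeat, where 6.56% of all genes were called in HSA-LR and 9.28% in treated mice. Of the 188 genes higher in WT gastrocnemius, 160 (85.1%) had the same direction in HSA-LR mice, where 52.4% of all genes did, and 77 (41.0%) were called there in that direction, against a background of 3.87%. In treated mice 167 (88.8%, against 51.6%) had the same direction and 86 (45.7%) were called, against a background of 4.33%. Of the 70 genes higher in WT quadriceps, 69 (98.6%, against 47.6%) kept their direction in HSA-LR mice and 56 (80.0%, against 48.4%) in treated mice, and 39 (55.7%) were called in each, against backgrounds of 2.68% and 4.95%. Called in the opposite direction were 2 genes in HSA-LR mice, Irx5 and Dusp14, and 2 in treated mice, Thbs4 and Prg4, which were named after their values were seen. In all 3 groups of mice, 49 genes were called higher in gastrocnemius and 24 higher in quadriceps. The size of the muscle difference was itself compared between groups, and it differed between WT and HSA-LR mice for 5 genes (0.0309%), 3 of them with the higher value in WT (0.0186%) and 2 with the lower (0.0124%), and between WT and treated mice for 0 genes (0.0%) by edgeR's interaction test, with 1127 at an unadjusted p under 0.05 in the second comparison. No other tool was run for these interactions.

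Slow fiber genes were higher in gastrocnemius. Of 16 contractile and calcium-handling genes of slow fibers, 12 were called higher in WT gastrocnemius and 0 lower, with a median log2 FC of 2.2 over the 16 genes, against 0.0015 over all genes tested. Their summed level was 3300, 5740 and 7670 CPM in the gastrocnemius of mice 1, 2 and 3 and 371, 356 and 958 CPM in the quadriceps of the same mice. All 3 gastrocnemius muscles were above all 3 quadriceps muscles, and in both muscles mouse 3 had the highest level. In mixed tissue, fewer cells of a type and less RNA per cell cannot be told apart, here and in the results that follow. The list gave 11 calls in HSA-LR and 8 in treated mice, all of them higher in gastrocnemius, and the WT count was 15 without mouse 1, 6 without mouse 2 and 8 without mouse 3.

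Myh7, the slow myosin heavy chain on chromosome 14, had the widest gap of the group. It measured 581, 985 and 1161 CPM in the gastrocnemius and 8.65, 14.2 and 91.4 CPM in the quadriceps, a log2 FC of 5.31 (SE 0.59, adjusted P = 0.0426), or 39.8-fold. The quadriceps of mouse 3 stood above the other two quadriceps muscles and still far below every gastrocnemius. In HSA-LR mice the log2 FC of Myh7 was 6.79 (adjusted P = 0.0156) and 3.96 in treated mice (adjusted P = 0.0797).

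The thin filament genes of slow fibers followed the same order of samples. Tnnc1, the slow and cardiac troponin C, measured 154, 255 and 302 CPM in gastrocnemius and 3.09, 4.24 and 21.6 CPM in quadriceps (log2 FC 5.10, SE 0.47, adjusted P = 0.0339). Tnnt1, the slow troponin T that anchors the complex on tropomyosin, measured 518, 914 and 1131 CPM and 20.9, 21.1 and 92.7 CPM (log2 FC 4.56, SE 0.38, adjusted P = 0.0271). Tnni1, the slow inhibitory subunit, measured 127, 216 and 286 CPM and 4.23, 5.96 and 31.2 CPM (log2 FC 4.42, SE 0.43, adjusted P = 0.0339). For each of the 3 subunits, mouse 3 was highest in both muscles and the muscles did not overlap. Tpm3, which holds the slow tropomyosin, rose from 46.2, 44.6 and 107 CPM in quadriceps to 490, 828 and 938 CPM in gastrocnemius (log2 FC 3.58, SE 0.23, adjusted P = 0.0119).

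The regulatory light chain Myl2 and the essential light chain Myl3, which bind the neck of the slow myosin, differed by a log2 FC of 3.76 (SE 0.32, adjusted P = 0.0301) and 4.02 (SE 0.24, adjusted P = 0.0119). Myl3 measured 273, 537 and 516 CPM in gastrocnemius and 19.8, 20.7 and 42.8 CPM in quadriceps. Atp2a2, the calcium pump, measured 398, 712 and 761 CPM against 86.4, 82.1 and 112 CPM (log2 FC 2.70, SE 0.18, adjusted P = 0.0142). Its quadriceps level was the least varied of these genes, and the gap to gastrocnemius was smaller than for the troponins. Smaller differences were called for Myoz2, a Z-disc protein that binds calcineurin (log2 FC 1.79), Csrp3, a Z-disc LIM protein (1.67), Myh7b, a slow-type myosin gene (1.55), and Casq2, the cardiac and slow calsequestrin (1.10). Csrp3 and Casq2 overlapped between the muscles, because mouse 3 was highest in each muscle, at 794 and 153 CPM for Csrp3.

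The other 4 slow genes did not pass the test. Ankrd2, a stretch-regulated ankyrin repeat protein, had a log2 FC of 1.48 (adjusted P = 0.154), Myl6b 1.40 (adjusted P = 0.114), and Pln and Sln, small inhibitors of the calcium pumps, 1.48 (adjusted P = 0.161) and 0.77 (adjusted P = 0.675). Prox1, a homeobox factor known for its role in slow fibers, was the only one of 24 tested fiber type regulators that was called, at 1.16, 1.66 and 1.39 CPM in gastrocnemius and 0.451, 0.629 and 0.610 CPM in quadriceps (log2 FC 1.31, SE 0.16, adjusted P = 0.0487). Its muscles did not overlap, and it was also called in HSA-LR mice (1.27, adjusted P = 0.0601) but not in treated mice (0.72, adjusted P = 0.210). The list gave 5 calls higher in gastrocnemius and 4 higher in quadriceps without mouse 1, 0 without mouse 2 or mouse 3 in edgeR, with 5 and 2 at an unadjusted p under 0.05, and 3 with DESeq2.

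**Figure D1:**
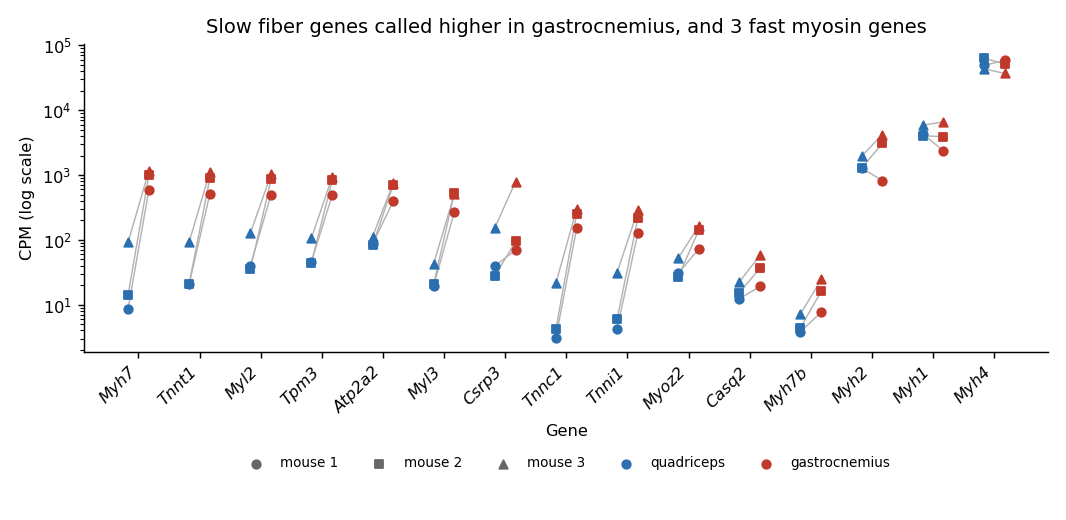
Level in CPM, on a log axis, of the 12 slow fiber genes called higher in gastrocnemius and of 3 fast myosin genes, for each WT mouse. Blue points are quadriceps and red points gastrocnemius, lines join the 2 muscles of a mouse, and the shape gives the mouse: every line of a slow gene rises, while the lines of Myh2, Myh1 and Myh4 go both ways.

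Contractile genes of fast fibers showed no difference of this kind. Of 16 such genes, 0 were called in the edgeR test, 0 had an unadjusted p under 0.05 and limma voom and DESeq2 called 0, with log2 FCs from -0.28 to 0.60 and a median of -0.051. Without mouse 1 the edgeR test called 1 higher in gastrocnemius and 3 higher in quadriceps, with a median of -0.12. Myh4, the myosin heavy chain of type 2B fibers, measured 58970, 51710 and 37010 CPM in gastrocnemius and 49100, 64070 and 43580 CPM in quadriceps (log2 FC -0.09, SE 0.15, adjusted P = 0.825), and without mouse 1 it was lower in gastrocnemius (-0.273, adjusted P = 0.0378). Atp2a1, the fast calcium pump, had a log2 FC of -0.06 (SE 0.10), Tnnt3, the fast troponin T, 0.05 (SE 0.12) and Tpm1 0.09 (SE 0.11).

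To place the slow myosin beside the fast ones, the 4 main myosin heavy chain genes were compared per kb of exon and expressed as a percent of their sum. Myh7 made up 0.652%, 1.17% and 1.70% in gastrocnemius and 0.0111%, 0.0143% and 0.125% in quadriceps. Myh2, the type 2A gene, made up 1.11%, 4.42% and 7.45% against 1.99%, 1.57% and 3.24%, and Myh1, the type 2X gene, 3.56%, 6.32% and 13.2% against 7.60%, 5.53% and 10.9%. Myh4 made up 94.7%, 88.1% and 77.7% in gastrocnemius and 90.4%, 92.9% and 85.7% in quadriceps. Thus the 2B gene held most of the myosin counts in all 6 muscles, mouse 3 had the lowest 2B share in both, and only the share of Myh7 was separated between the muscles. The two-sided exact sign-flip test gave p = 0.25 for Myh7, the smallest value 3 pairs allow, 0.5 for Myh2 and Myh4 and 1.0 for Myh1. Myh1, Myh2 and Myh4 are near-identical over long stretches, so the split of reads between them is uncertain.

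Myh6, the alpha myosin of heart and muscle spindle fibers, rose from 4.21, 4.54 and 10.9 CPM in quadriceps to 39.6, 74.2 and 95.1 CPM in gastrocnemius (log2 FC 3.46, SE 0.20, adjusted P = 0.0119). It lies next to Myh7 and shares near-identical sequence with it, and its samples stood in the same order as those of Myh7. Of its exon bins, 6 were called as used less in gastrocnemius relative to the gene. Bin 12, with the smallest p of these, had 14, 37 and 57 counts in gastrocnemius and 15, 18 and 27 in quadriceps. The rise of the gene's sum was thus not shared by all its bins, and the part of Myh7 reads in it was not tested. In a list of 7 tested muscle spindle genes, Tnnt2, the cardiac troponin T, was also higher in gastrocnemius (log2 FC 0.59) and Etv4, a transcription factor, lower (-0.74), and the other 4 were not called. Without mouse 2 or mouse 3, 1 gene of this list was called.

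Outside the slow fiber list, which holds Atp2a2 and Casq2, few genes of energy metabolism or calcium handling differed between the muscles. Of 28 glycolysis and glycogen genes, 46 nuclear genes of oxidative phosphorylation, 6 mitochondrial genome genes and 22 calcium handling genes, 0 were called by the edgeR test, with median log2 FCs of -0.037, -0.076, -0.16 and 0.0087. At an unadjusted p under 0.05 these lists had 2, 1, 1 and 2 genes, limma voom called 0 in each, and DESeq2 called 1 in each of the first 3 lists and 0 in the last. Without mouse 1, 4 glycolysis and glycogen genes were called, 1 of them higher in gastrocnemius, and 1 mitochondrial genome gene, higher in quadriceps. Aldoa, a glycolytic aldolase, had a log2 FC of -0.07 (SE 0.10) and Ryr1, the calcium release channel, 0.07 (SE 0.10). Of 26 genes for fatty acid uptake and oxidation 0 were called by edgeR, limma voom or DESeq2 and 0 had an unadjusted p under 0.05 in edgeR, yet all 26 had a negative log2 FC, with a median of -0.26. By mouse, that median was -0.91 in mouse 1, 0.099 in mouse 2 and -0.035 in mouse 3, so that the direction rested on mouse 1. Hadha, a subunit of the trifunctional enzyme of beta-oxidation, measured 449, 657 and 723 CPM in gastrocnemius and 806, 606 and 712 CPM in quadriceps, and was higher in quadriceps in mouse 1 alone.

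Hox genes differed in both directions. Of 24 Hox cluster genes tested, 6 were called higher in gastrocnemius and 2 higher in quadriceps, with a median log2 FC of 0.048. All 8 were called in the same direction in the HSA-LR and the treated mice as well. The list gave 8 calls without mouse 1, 1 without mouse 2 and 5 without mouse 3.

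The genes higher in gastrocnemius were from the 5′ side of the HoxA and HoxC clusters and from HoxD. Hoxd8 measured 41.6, 39.7 and 35.7 CPM in gastrocnemius and 8.69, 10.9 and 10.1 CPM in quadriceps (log2 FC 1.98, SE 0.11, adjusted P = 0.0117), and Hoxd9 11, 11.7 and 9.76 CPM against 1.98, 2.30 and 2.64 CPM (log2 FC 2.24, SE 0.14, adjusted P = 0.0119). These were the only 2 HoxD genes tested, their values were tight within each muscle, and the muscles lay well apart. Hoxa13, the last gene of the HoxA cluster and known for the most distal limb, measured 3.35, 3.65 and 1.95 CPM against 0.633, 0.646 and 0.618 CPM (log2 FC 2.19, SE 0.21, adjusted P = 0.0339). Its neighbour Hoxa11 measured 3.04, 2.55 and 0.950 CPM against 0.468, 0.821 and 0.441 CPM (log2 FC 1.82, SE 0.32, adjusted P = 0.0950). In both genes the gastrocnemius of mouse 3 was the lowest of the 3 and still above every quadriceps.

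Within the HoxC cluster on chromosome 15 the direction changed along the cluster. Hoxc11 measured 4.91, 4.68 and 3.15 CPM in gastrocnemius and 1.60, 2.17 and 1.10 CPM in quadriceps (log2 FC 1.41, SE 0.15, adjusted P = 0.0400). Hotair, a long noncoding RNA read antisense between Hoxc11 and Hoxc12, was low in both muscles, at 0.491, 0.835 and 0.702 CPM against 0.0867, 0.149 and 0.0593 CPM (log2 FC 2.80, SE 0.31, adjusted P = 0.0426). Hoxc8 and Hoxc6, which lie further to the 3′ side, were the pair higher in quadriceps. Hoxc8 measured 0.728, 0.635 and 0.551 CPM against 3.33, 2.17 and 1.76 CPM (log2 FC -1.88, SE 0.17, adjusted P = 0.0339), and Hoxc6 1.66, 2.06 and 2.48 CPM against 7.01, 6.57 and 6.86 CPM (log2 FC -1.73, SE 0.15, adjusted P = 0.0306). Hoxc9, which lies between these pairs, had a log2 FC of -0.41 (adjusted P = 0.218), and Hoxc4, at the 3′ end, -0.02 (adjusted P = 0.957).

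None of the 8 HoxB genes tested was called, and neither were the 6 other HoxA genes. Hoxa10 measured 9.25, 7.96 and 6.38 CPM in gastrocnemius and 6.43, 7.78 and 5.67 CPM in quadriceps (log2 FC 0.24, SE 0.12), and Hoxa7 had a log2 FC of -0.19 (SE 0.09). Hoxd3os1, an antisense transcript in the HoxD cluster that overlaps Hoxd8 in its coordinates, was chosen after its values were seen and was also called higher in gastrocnemius (log2 FC 1.76, adjusted P = 0.0702). Several Hox genes of the list, such as Hoxa9, Hoxc10 and Hoxd10, were not analysed here.

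**Figure D2:**
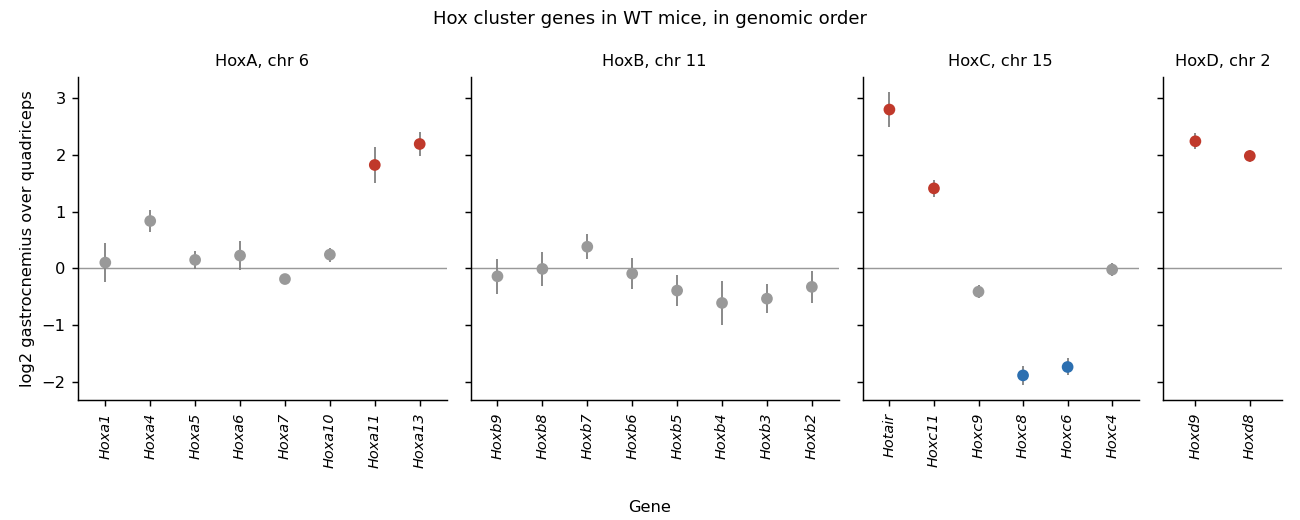
Log2 FC of gastrocnemius over quadriceps in WT mice for the 24 Hox cluster genes tested, by cluster and in the order of their coordinates. Bars are SEs of the log2 FC from 3 pairs, red points were called higher in gastrocnemius, blue points higher in quadriceps and grey points were not called: the called genes are Hoxa11 and Hoxa13, Hotair and Hoxc11, Hoxc8 and Hoxc6, and both HoxD genes.

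Outside the Hox clusters, 33 patterning factors of the limb were tested, and 1 was called in each direction, with a median log2 FC of 0.12, while without mouse 1 6 and 5 were called. Tbx1, a T-box factor, was the gene with the smallest adjusted P of the comparison. It measured 6.18, 5.54 and 6.89 CPM in gastrocnemius and 34.0, 31.9 and 34.0 CPM in quadriceps (log2 FC -2.43, SE 0.08, adjusted P = 0.00301). The 3 mice were close to each other in both muscles, and the same difference was called in HSA-LR mice (-2.89) and treated mice (-3.17). Pax3, a paired box factor of muscle progenitors, measured 0.237, 0.1 and 0.0895 CPM against 0.798, 0.611 and 0.601 CPM (log2 FC -2.32, SE 0.30, adjusted P = 0.0503). It was the only one of 18 tested myogenic regulator and satellite cell genes to be called, and it too was called in the other mice (-2.76 and -3.69).

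Irx5, an Iroquois homeobox factor, went the other way in WT mice, at 2.25, 0.364 and 2.33 CPM in gastrocnemius and 0.165, 0.0262 and 0.102 CPM in quadriceps (log2 FC 4.05, SE 0.26, adjusted P = 0.0119). Each gastrocnemius was above all 3 quadriceps muscles, and mouse 2 was low in both. In HSA-LR mice the quadriceps had the higher level instead, with a log2 FC of -2.96 (adjusted P = 0.0404), and in treated mice the log2 FC was 0.96 (adjusted P = 0.297).

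Isl1, a LIM homeobox factor, was chosen after its values were seen, as the gene of the 73 shared by the 3 groups of mice with the widest gap. In WT mice it had 25, 64 and 32 counts in gastrocnemius and 0, 0 and 1 in quadriceps. The ratio of CPM was 104, with an exact 95% interval of 18.3 to 4140 that covers counting error only. In all 9 gastrocnemius libraries of the series it lay between 0.0507 and 0.555 CPM, and in all 9 quadriceps libraries between 0 and 0.0253 CPM. The ranges do not overlap, although every level is low.

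Other genes shared by the 3 groups of mice were also picked after their values were seen. Aldh1a2, which makes retinoic acid, measured 4.25, 5.77 and 1.78 CPM in gastrocnemius and 0.590, 0.629 and 0.347 CPM in quadriceps (log2 FC 2.83, SE 0.20, adjusted P = 0.0150). Rspo3, a secreted enhancer of Wnt signalling, had a log2 FC of 2.36, Lgi1, a secreted neuronal protein, 2.33, and Fhl2, a LIM protein of heart and muscle, 2.31, all with no overlap between the muscles. Among the genes higher in quadriceps, Peg3, an imprinted zinc finger gene, measured 8.89, 6.13 and 12.2 CPM in gastrocnemius and 13.9, 21.2 and 35.1 CPM in quadriceps (log2 FC -1.32, SE 0.22, adjusted P = 0.0886). Itga4, an integrin subunit, had a log2 FC of -1.29 and Gabrd, a GABA receptor subunit, -0.99.

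Part of the tendon and matrix genes were called higher in gastrocnemius, and far fewer were called without mouse 2 or mouse 3. Of 16 tendon and myotendinous junction genes tested, 8 were called higher in WT gastrocnemius and 0 lower, with a median log2 FC of 0.86. A separate set of 6 tendon markers, none of them at 0, summed to 96.8 to 197 CPM in gastrocnemius and 58.4 to 111 CPM in quadriceps, and the part of tendon tissue in the difference was not tested. Fmod, a collagen-binding proteoglycan of tendon, measured 65.7, 132 and 135 CPM in gastrocnemius and 35.7, 52.9 and 75.0 CPM in quadriceps (log2 FC 1.02, SE 0.11, adjusted P = 0.0425). The gastrocnemius of mouse 1 lay below the quadriceps of mouse 3, so the muscles overlapped, although each mouse had the higher level in gastrocnemius. Scx, the transcription factor of tendon cells, measured 2.88, 2.90 and 3.31 CPM against 1.20, 1.54 and 1.64 CPM (log2 FC 1.06, SE 0.14, adjusted P = 0.0506). The other called genes were Cilp2 (log2 FC 1.29), Col11a1 (1.23), Mkx, a homeobox factor of tendon (1.22), Comp (1.09), Ccn2 (1.07) and Thbs4 (0.64).

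The tendon list did not behave in the same way in all mice. Its median log2 FC was 0.42 in HSA-LR mice, with 4 genes called higher in gastrocnemius, and -0.44 in treated mice, with 1 called higher and 4 lower. Thbs4, a matrix protein of the myotendinous junction, had a log2 FC of -0.51 in treated mice (adjusted P = 0.0538). Prg4, the lubricin of joints and tendon sheaths, had a log2 FC of 0.71 in WT mice (adjusted P = 0.0636) and -0.93 in treated mice (adjusted P = 0.0140). In WT mice the count of 8 was 11 without mouse 1, 0 without mouse 2 and 1 without mouse 3. Without mouse 2 and without mouse 3, 10 and 9 genes had an unadjusted p under 0.05 in edgeR, and the medians were 0.87 and 0.74.

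Of 25 collagen and matrix genes, 6 were called higher in gastrocnemius and 0 lower, with a median log2 FC of 0.30. Col1a1, a chain of type I collagen, measured 277, 282 and 313 CPM in gastrocnemius and 164, 146 and 150 CPM in quadriceps (log2 FC 0.92, SE 0.08, adjusted P = 0.0319), and Col1a2, the other chain, had a log2 FC of 0.86 (SE 0.08). The muscles did not overlap for either chain, and both were called in the HSA-LR and treated mice too, with log2 FCs from 0.29 to 0.37. Dcn, a small proteoglycan (0.68), Fbn1, the fibrillin of elastic fibers (0.61), and the matrix protease Mmp2 (0.58) also rose. Without mouse 2 or without mouse 3, 0 of the 25 were called by the edgeR test, with 12 at an unadjusted p under 0.05 in each case, and without mouse 1 12 were called. The cartilage collagen Col2a1 was low, at 0.908, 1.16 and 1.09 CPM against 0.251, 0.314 and 0.271 CPM (log2 FC 1.91, SE 0.19, adjusted P = 0.0339), and the cartilage and bone markers Matn1 and Ibsp were at 0 in all 6 libraries.

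Few markers of nerve, vessel and immune cells were called. Of 12 Schwann cell and myelin genes and of 8 macrophage and lymphoid genes 0 were called by edgeR or limma voom, with median log2 FCs of 0.29 and 0.39, 4 and 5 genes at an unadjusted p under 0.05, and 2 and 3 called by DESeq2. Without mouse 1, edgeR called 2 and 3. Vwf, the clotting factor of endothelium (log2 FC 0.58), and Cnn1, a smooth muscle calponin (1.01), were the 2 called of 12 vascular genes, with a median of 0.14. The edgeR count was 4 without mouse 1 and 0 without mouse 2 or mouse 3, with 5 and 4 at an unadjusted p under 0.05, and 10 of the 12 were called higher in gastrocnemius in HSA-LR mice (median 0.52) and 3 in treated mice (0.22). Of 12 neuromuscular junction genes 1 was called, Ache, the acetylcholinesterase of the synapse, which measured 30.8, 31.6 and 25.1 CPM in gastrocnemius and 40.6, 42.2 and 34.2 CPM in quadriceps (log2 FC -0.42, SE 0.06, adjusted P = 0.0710). That small difference held in each mouse and was also called in HSA-LR mice (-0.50) and treated mice (-0.52), while in WT mice the call was lost without mouse 2 or mouse 3.

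The largest differences in favour of the quadriceps were in fat genes. Ucp1, the uncoupling protein of brown and beige adipocytes, measured 193, 13.3 and 27.1 CPM in quadriceps and 0.123, 0.143 and 0.296 CPM in gastrocnemius (log2 FC -8.01, SE 0.78, adjusted P = 0.0339). Mouse 1 was highest in quadriceps, and all 3 quadriceps muscles were far above all 3 gastrocnemius muscles. Elovl3, a fatty acid elongase of brown fat, had 942, 70 and 171 counts in quadriceps and 1, 0 and 2 in gastrocnemius. The totals of 1183 and 3 gave a ratio of CPM of 459, with an exact 95% interval of 157 to 2230 that covers counting error only. Cidea, a lipid droplet protein of brown adipocytes, measured 102, 9.59 and 10.7 CPM against 0.581, 0.5 and 1.05 CPM (log2 FC -4.96, SE 0.83, adjusted P = 0.0884).

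The genes that followed were of lipid and small molecule metabolism for the most part. They were Slc27a2, a fatty acid transporter and acyl-CoA synthetase (log2 FC -5.27), Slc2a5, the fructose transporter (-4.78), Aspg, an asparaginase (-4.37), Elovl6, a second elongase (-4.15), Acsm3, an acyl-CoA synthetase (-3.84), the proteoglycan Ncan (-3.77), Chdh, the choline dehydrogenase (-2.76), and Apoc1, an apolipoprotein (-2.48). In each of these 8 genes the quadriceps of mouse 1 was the highest library, with 45.4 CPM of Elovl6 against 8.57 and 6.83 CPM in mice 2 and 3. Cyp4f39, a cytochrome P450, differed from them in its samples, at 1.59, 1.01 and 1.47 CPM in gastrocnemius and 6.88, 7.80 and 12.7 CPM in quadriceps (log2 FC -2.72, SE 0.22, adjusted P = 0.0250). Of the 12 genes with the widest gap in favour of quadriceps and a mean of at least 1 CPM there, it alone was also called in that direction in treated mice (-3.72, adjusted P = 0.000404).

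These differences moved with the level of adipocyte markers. Of 12 adipocyte genes tested, 2 were called, Ucp1 and Retn, the resistin of white fat (log2 FC -1.58), and all 12 had a negative log2 FC, with a median of -1.3. Their summed level was 812, 657 and 808 CPM in gastrocnemius and 5560, 1270 and 1290 CPM in quadriceps. The 6 defining markers, none of them at 0, summed to 164, 104 and 147 CPM in gastrocnemius and 611, 160 and 261 CPM in quadriceps. For these 6 each mouse was higher in quadriceps, but the muscles overlapped. Scd1, a desaturase abundant in fat, measured 3343, 585 and 388 CPM in quadriceps and 198, 154 and 162 CPM in gastrocnemius, but did not pass the test (log2 FC -2.38, adjusted P = 0.168). The part of adipocytes in the result was not tested. Without mouse 1, 10 of the 12 were called and the median was -0.82, and without mouse 2 the edgeR test called 0, with 11 at an unadjusted p under 0.05.

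A list of 15 brown adipocyte genes was added after the data were seen, and 14 of them were tested. All 14 had a negative log2 FC, with a median of -2.0, and 4 were called, namely Elovl3, Ucp1, Slc27a2 and Cidea. The list gave 8 calls without mouse 1, 1 without mouse 2 and 2 without mouse 3, with medians of -1.4, -3.0 and -2.5. The same 4 were not called in treated mice, where the list's median was 0.17, with 2 of the list at an unadjusted p under 0.05, while in HSA-LR mice it was -2.3. The levels varied by library in the other mice too, since Ucp1 was at 61.9, 188 and 0.0836 CPM in the quadriceps of HSA-LR mice and at 0.617, 0.345 and 0.207 CPM in that of treated mice. In the gastrocnemius of treated mouse 3 it was at 9.92 CPM, the only gastrocnemius library of the 9 above 0.298 CPM.

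Blood genes went the other way. Of 7 erythroid genes tested, 6 were called higher in WT gastrocnemius, with a median log2 FC of 2.7, and their summed level was 3880, 777 and 945 CPM in gastrocnemius and 301, 195 and 200 CPM in quadriceps. The adult beta globin Hbb-bs measured 1878, 372 and 475 CPM against 138, 97.9 and 101 CPM (log2 FC 2.63, SE 0.37, adjusted P = 0.0667), and the alpha globin Hba-a1 had the same log2 FC (2.63). Near-identical globin copies share reads, so their split is uncertain. Alas2, the first enzyme of heme synthesis in red cells (2.74), Slc4a1, the anion exchanger of the red cell membrane (3.0), and Hbb-bt (2.78) were also called. Mouse 1 was the highest in gastrocnemius for each of these 5 genes. Without mouse 2, 0 of the 7 were called although all 7 had an unadjusted p under 0.05, and without mouse 3 4 were called. In HSA-LR and treated mice none of the 7 was called by the edgeR test, with 4 and 6 at an unadjusted p under 0.05 and medians of 1.6 and 1.4.

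Platelet genes moved with them in WT mice. A list of 12 platelet and megakaryocyte genes was added after the data were seen, 9 were tested and 5 were called higher in gastrocnemius, with a median log2 FC of 3.0. Ppbp, a platelet chemokine, measured 6.05, 1.32 and 2.36 CPM in gastrocnemius and 0.425, 0.201 and 0.288 CPM in quadriceps (log2 FC 3.24, SE 0.25, adjusted P = 0.0234). Gp6, the collagen receptor of platelets, had 34, 36 and 23 counts against 1, 0 and 1, a ratio of CPM of 39.9 with an exact 95% interval of 10.7 to 335. Tubb1, the tubulin of platelets, had a log2 FC of 3.05, Pf4, a chemokine, 0.95 and the integrin Itgb3 0.95. The summed level of the list was 29.7, 11.2 and 17.1 CPM in gastrocnemius and 6.65, 5.66 and 6.37 CPM in quadriceps, with 7 calls without mouse 1 and 1 without mouse 2 or without mouse 3. In HSA-LR mice 0 of the 9 were called by edgeR, with 1 at an unadjusted p under 0.05, and the sums were 7.74, 8.09 and 9.73 CPM in gastrocnemius and 7.72, 8.16 and 8.81 CPM in quadriceps. In treated mice 5 were called, with sums of 14.8, 7.91 and 33.7 CPM against 6.73, 6.13 and 5.12 CPM. The part of blood in the difference between the muscles was not tested.

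**Figure D3:**
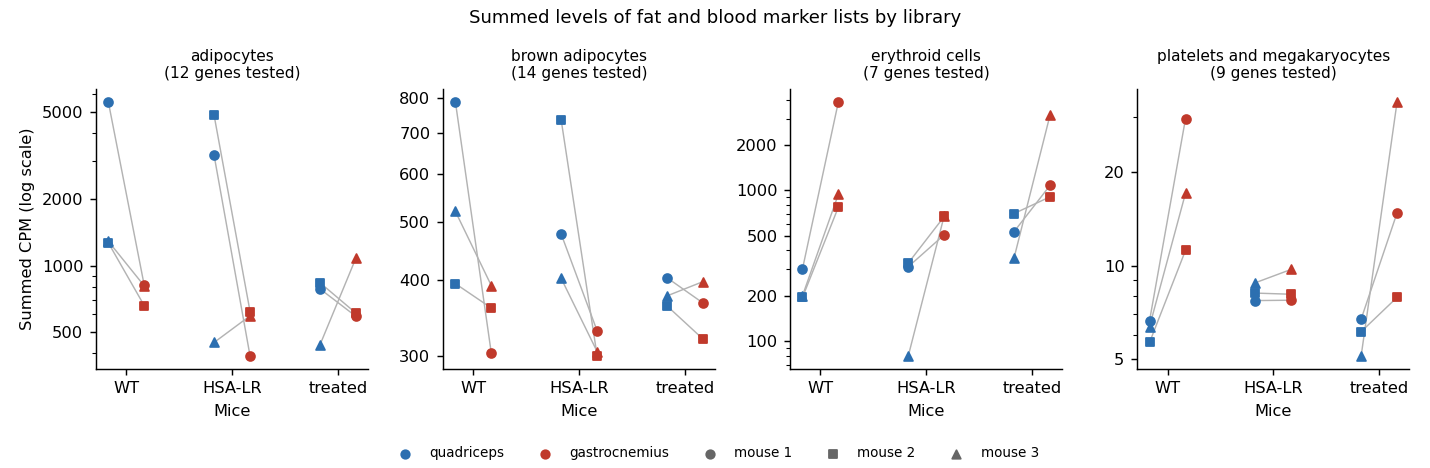
Summed level in CPM, on log axes that do not start at 0, of the tested genes of 4 marker lists in the 18 libraries. Blue points are quadriceps, red points gastrocnemius, the shape gives the mouse and lines join the muscles of a mouse: in WT mice all 3 lines fall for both fat lists and rise for both blood lists, while in HSA-LR and treated mice some lines go the other way or stay nearly flat.

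The 2 remaining genes with the widest gap in favour of gastrocnemius were Nrgn and Trnp1. Nrgn, the neurogranin of neurons, measured 8.78, 2.08 and 4.75 CPM in gastrocnemius and 0.477, 0.463 and 0.576 CPM in quadriceps (log2 FC 3.16, SE 0.39, adjusted P = 0.0482). As for the blood genes, mouse 1 was the highest in gastrocnemius. Trnp1, a nuclear protein of progenitor cells, measured 15.4, 7.24 and 0.110 CPM against 1.52, 0.769 and 0.0508 CPM (log2 FC 3.13, SE 0.30, adjusted P = 0.0339). It was low in both muscles of mouse 3, so the muscles overlapped while each mouse showed the difference.

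The remaining lists gave few calls in the WT comparison. Among 21 immediate early genes, Dusp1, a phosphatase of the stress response, was the only one called (log2 FC 0.62, adjusted P = 0.0921), with a median of 0.39 and 11 at an unadjusted p under 0.05. DESeq2 called 5 of the 21, and edgeR called 7 without mouse 1 and 0 without mouse 2 or mouse 3, with 11 and 8 at an unadjusted p under 0.05. Myh3, the embryonic myosin, was called among 3 developmental myosins, at 3.12, 3.48 and 6.71 CPM in gastrocnemius and 1.47, 2.38 and 2.98 CPM in quadriceps (log2 FC 0.94, SE 0.16, adjusted P = 0.0940), a call lost without mouse 2 or mouse 3. Of 21 splicing regulators, 18 circadian clock genes, 17 atrophy and proteasome genes and 4 skin and other epithelium genes, 0 were called by edgeR or limma voom, with 3, 3, 5 and 1 at an unadjusted p under 0.05, and DESeq2 called 1, 1, 2 and 0. Of 48 sarcomere, membrane and calcium genes known for alternative splicing, 3 were called, the slow genes Tnnt1 and Tpm3 beside Ablim1, an actin-binding LIM protein (log2 FC 0.54).

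Exon usage was examined next, as the count of a bin relative to its gene. The test pools the spread over all bins of a gene, and a read pair can count in several of them. A bin's p-value can thus be far smaller than the 3 mice alone would give, and the counts by mouse should be read beside it. Of 165574 exon bins tested with edgeR's diffSpliceDGE, 61 (0.0368%) were called, 16 (0.00966%) used more in gastrocnemius and 45 (0.0272%) used less. They lay in 35 genes, of which 30 had 1 called bin, and Ttn (11), Tpm3 (8), Myh6 (6), Tacc2 (4) and Atp2a2 (2) held 31 of them. Of the 61 bins, 47 had 1 direction in the 3 mice. The count was 1486 without mouse 1 and 29 without mouse 3. Among the 47 tested genes of the list known for alternative splicing, 22 of 2190 bins (1.0%) were called, in 5 genes. Ttn held 11 of these 22 bins and Tpm3 8, and the Ttn calls turned on 1 library, as described below.

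In Tpm3 the called bins were those that rose less than the gene or not at all. The gene gives rise to a muscle tropomyosin and to shorter and ubiquitous ones through its first exon, its alternative internal exons and its last exon. The counts of the gene were higher in gastrocnemius by a log2 FC of 3.58, yet bin 40, the last exon part shown above, had 1201, 1316 and 1798 counts in gastrocnemius and 1263, 912 and 1300 in quadriceps. Its share of the gene's counts was 2.01%, 1.14% and 1.32% in gastrocnemius and 23.7%, 17.9% and 10.3% in quadriceps (log2 relative change -3.50, adjusted P = 8.46e-13). The share was lowest in quadriceps for mouse 3, the quadriceps with the highest Tpm3 level. The alternative last exon part, bin 38, had 3000, 5965 and 7151 counts against 107, 121 and 449, so that its mean CPM was 20.2-fold higher in gastrocnemius, while that of bin 40 was 1.06-fold higher.

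The pair of alternative internal exons shown above also differed. Bin 23 had 164, 199 and 305 counts in gastrocnemius and 134, 108 and 136 in quadriceps, 1.5-fold by mean CPM (log2 relative change -3.02, adjusted P = 2.39e-09). Bin 28, the second part of the alternative exon, had 3697, 7413 and 8621 counts against 152, 203 and 648, which is 16.7-fold. Both exons are coding, and the gap between the muscles was far smaller in the first than in the second. Bins 6 and 7, an exon with untranslated and coding sequence that follows the first 2 exons, had 48, 86 and 72 and 124, 169 and 175 counts in gastrocnemius and 62, 45 and 72 and 123, 96 and 144 in quadriceps. The first 2 exons, bins 2 and 3, were 19.7- and 19.9-fold higher in gastrocnemius. Bin 40 was also used less in gastrocnemius in HSA-LR mice (-3.91, adjusted P = 6.38e-06) and treated mice (-2.58, adjusted P = 0.00666). The number of Tpm3 bins called was 4 without mouse 1, 6 without mouse 2 and 12 without mouse 3.

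**Figure D4:**
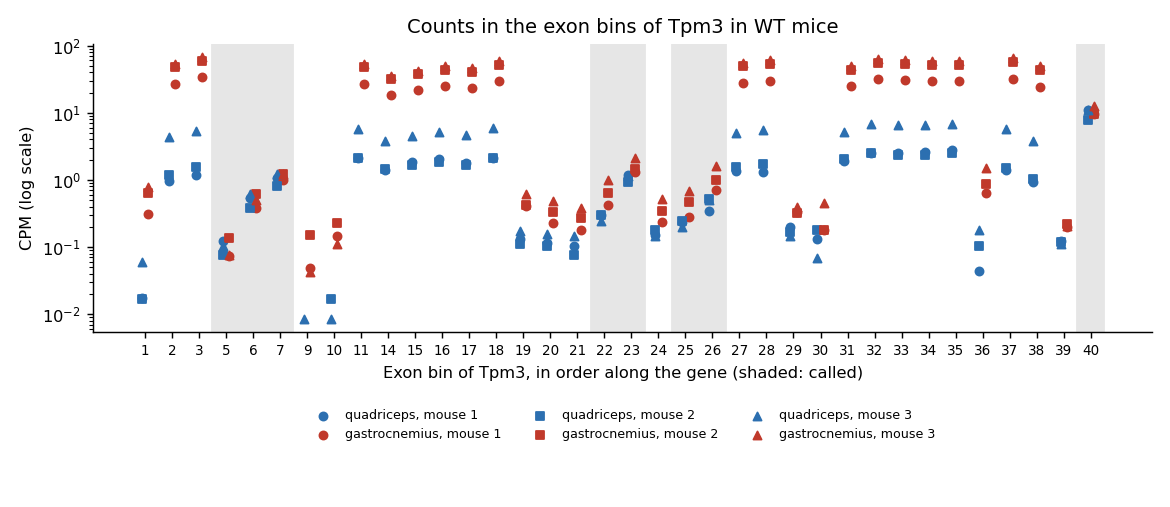
CPM, on a log axis, of the exon bins of Tpm3 in the 6 WT libraries, in order along the gene. Blue points are quadriceps and red points gastrocnemius, the shape gives the mouse, grey bands mark the 8 called bins and counts of 0 are not drawn: in the called bins the colours lie closer together, while in most bins with high counts the red points lie over 10-fold above the blue ones of mice 1 and 2.

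Atp2a2 showed the same arrangement on a smaller scale. Its bin 4, a part with coding and untranslated sequence that 1 coding transcript holds, had 935, 1544 and 1748 counts in gastrocnemius and 679, 465 and 634 in quadriceps, or 1.92%, 1.55% and 1.58% of the gene's counts against 6.82%, 4.95% and 4.80% (log2 relative change -1.70, adjusted P = 0.000291). The bin rose in gastrocnemius in every mouse, but by less than the gene. In Mybpc1, the 54-base coding exon shown above made up 0.0713%, 0.0496% and 0.0701% of counts in gastrocnemius and 0.0213%, 0.0236% and 0.0351% in quadriceps (log2 relative change 1.26, adjusted P = 0.000936). Neither bin was called in HSA-LR or treated mice, where the values were -1.77 and -0.79 for Atp2a2 and 0.46 and 0.83 for Mybpc1.

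The bin with the smallest p was bin 19 of Myom1, a gene of the M-band that links thick filaments. It had 352, 804 and 963 counts in gastrocnemius and 118, 129 and 225 in quadriceps, or 0.146%, 0.304% and 0.360% of the gene's counts against 0.0617%, 0.0587% and 0.110% (log2 relative change 1.78, adjusted P = 2.24e-25). The muscles did not overlap, and the bin was also called in HSA-LR mice (2.57) and treated mice (1.34). Its coordinates were not matched to the annotation used here. Of the 50 called bins outside Ttn, 9 were called in the same direction in HSA-LR and 8 in treated mice. Of all 180522 bins tested in the fit of those mice, 28 were called used more in gastrocnemius and 34 less in HSA-LR mice. In treated mice the numbers were 41 and 497.

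The remaining bins chosen by the same rule, those with the smallest p among bins with at least 20 counts on average in the muscle that used them more and at least a 2-fold change, were mostly exon parts outside the coding sequence of abundant genes. Tpm1 bin 22, in the gene of the fast tropomyosin, had 3255, 5045 and 2800 counts in gastrocnemius and 287, 1010 and 245 in quadriceps (log2 relative change 2.78, adjusted P = 1.38e-05), which was still at most 0.127% of the gene's counts. Pepd bin 19, in the gene of a dipeptidase, had 5, 5 and 8 counts against 95, 21 and 42 (log2 relative change -2.99, adjusted P = 4.10e-10). Beside Myom1 and Tpm3, Pepd alone among the 12 bins was also called in the same direction in HSA-LR mice (-3.75). Atp5f1 bin 7 (-2.00), Rpl7 bin 8 (-1.64), Tnnc2 bin 7 (-4.25) and Morf4l1 bin 2 (-1.18) were used less in gastrocnemius and Tpi1 bin 11 more (1.07), and none of these 5 was called in the other mice.

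For several of these the libraries of a muscle were far apart. Tnnc2 bin 7 had 21, 337 and 379 counts in the 3 quadriceps libraries, and Morf4l1 bin 2 had 503, 1962 and 516, the high count being that of mouse 2. Vdac3 bin 12, a coding part of 3 bases, had 63, 4 and 1 counts in gastrocnemius and 248, 230 and 7 in quadriceps (log2 relative change -3.16, adjusted P = 0.000273). Its muscles overlapped, since mouse 3 was low in both, and in HSA-LR mice it was called in the opposite direction (6.37).

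The 11 called bins of Ttn, the giant protein titin that spans the sarcomere from Z-disc to M-band, were consecutive bins, and in WT mice the call turned on 1 library. Bins 14 to 24 lie at chr2:76714329-76721073, from 10.3 to 17.1 kb before the 3′ end of the gene. They held 0.154%, 0.166% and 0.0669% of the gene's counts in gastrocnemius and 0.103%, 2.61% and 0.233% in quadriceps, so that the quadriceps of mouse 2 stood alone. Without mouse 2, 0 Ttn bins were called by the edgeR test, with 2 of the 11 at an unadjusted p under 0.05, without mouse 1 11 and without mouse 3 2. Only 3 of the 11 bins had 1 direction in the 3 mice. All 11 were also called, used less in gastrocnemius, in treated mice and 2 of them in HSA-LR mice, against 497 and 34 of all 180522 bins.

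Across the 18 libraries, 4 had over 2% of the gene's counts in these bins, all of them quadriceps, at 2.61% in WT mouse 2, 2.43% in HSA-LR mouse 2 and 2.73% and 3.91% in treated mice 1 and 2. The other 14 libraries of both muscles had from 0.0669% to 0.851%. The same 4 libraries had the highest counts in the 5′ part of long genes relative to the 3′ part, a measure of how evenly RNA is covered, with a median log2 ratio from -0.44 to -0.40, where the next library had -0.46. The part of this evenness of cover in the Ttn result was not tested. With the ratio as a covariate in the fit of all 18 libraries the 11 bins were still called. That fit cannot decide the question, since a linear term need not follow a rise confined to these 4 libraries.

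**Figure D5:**
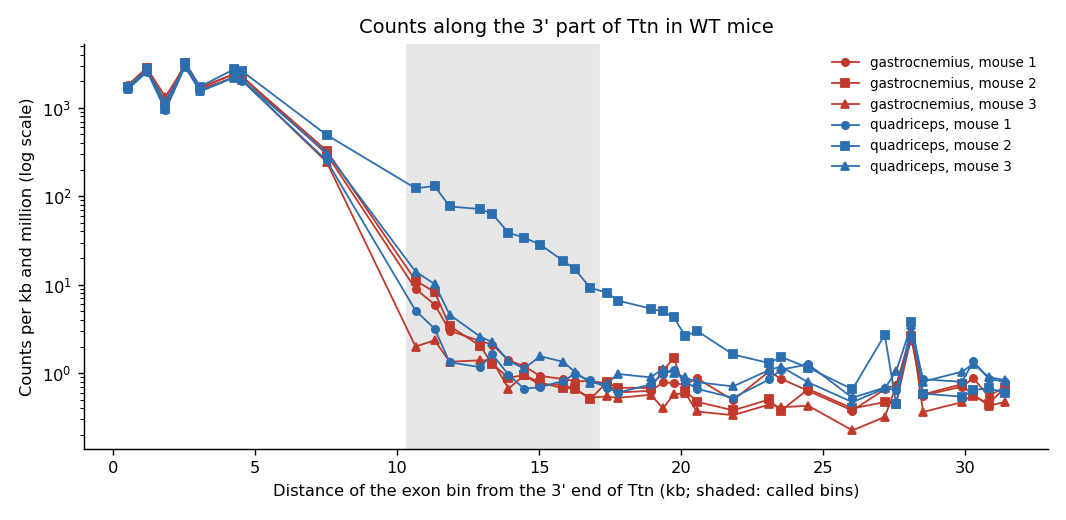
CPM per kb of bin, on a log axis, against the distance of the exon bin from the 3′ end of Ttn, for the last 40 kb of the gene in the 6 WT libraries. Blue lines are quadriceps and red lines gastrocnemius, the marker gives the mouse, counts of 0 are not drawn and the grey band spans the 11 called bins: there the quadriceps of mouse 2 lies above the other 5 libraries, while elsewhere the lines mostly run together.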

How the data were processed

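Poly(A) RNA of gastrocnemius and quadriceps was sequenced from stranded TruSeq libraries. Per the submitters' processing notes, CASAVA, HISAT and featureCounts 1.5.0 were used with GRCm38, and the authors deposited raw counts per exon bin for each sample. The strand setting of the counting is not given in the sources used here, and a read pair over several bins can count in each. Bins were matched to GENCODE M21, which gave 46520 of 46725 genes a symbol, and rows that name no gene, 3.05% to 3.86% of WT counts, were left out.

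Bins were summed per gene and tested with edgeR 4.0.16 (R 4.3.3) by quasi-likelihood, after TMM normalization and filterByExpr (minimum count 10, minimum total 15), with Benjamini-Hochberg adjustment over all genes or bins and a threshold of 0.1. The WT fit held 6 libraries with the mouse as a block, and HSA-LR and treated values and interactions came from 1 fit of 18 libraries. The labels give the same replicate number to both muscles of a mouse, and deviations from the group means correlated between the muscles of a mouse at r = 0.2376, 0.2483 and 0.5108 in WT, 0.0871, 0.1874 and 0.2146 in HSA-LR and 0.1234, 0.0645 and 0.2384 in treated mice, where gastrocnemius 1 correlated more with quadriceps 2 (0.2189). In HSA-LR mice quadriceps 1 correlated more with gastrocnemius 2 (0.1521) than with gastrocnemius 1. Exon usage was tested with diffSpliceDGE. CPM of genes and lists are TMM-adjusted, while those of marker checks, myosin shares and single bins use library totals. Myosin lengths are those of the later annotation. The fits were tested on simulated data, where 80.5% of genes changed 2-fold and 98.5% of genes changed 4-fold were recovered in runs on 14924 and 14923 genes, with 10.1% and 8.8% false calls. Of 200 bins changed 4-fold among 162706 bins, 184 (92%) were recovered, while 258 bins were called. Of these calls 5.04% lay in genes without a changed bin, and others were unchanged bins of genes that held one.

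Genes were named by rule, namely the 12 largest changes per direction among called genes with a mean of at least 1 CPM in the higher muscle, the called members of the gene lists, up to 4 abundant uncalled members of main lists, genes with a called interaction and fiber type markers. The other names are marked in the text as chosen after their values were seen. The members and gene lists were chosen with earlier results of these data known. Alternatives were limma 3.58.1 voom, DESeq2 1.42.0, other normalizations and filters, the largest bin of each gene, no block, all 18 libraries, the 5′ to 3′ ratio as a covariate, and leaving out each mouse. Genes not matched in the files were not analysed here. The values of 1 called gene are not reported here. Intervals of ratios are exact 95% intervals and cover counting error only. They take the counts as independent, although a read pair over several bins can count in each.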

Additional observations from a re-analysis of the deposited data

Results flagged for a closer look

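For 5 genes the difference between the muscles was not the same size in WT and HSA-LR mice by the interaction test in edgeR's fit of all 18 libraries, and the values below are the log2 FC of gastrocnemius over quadriceps in WT mice minus that in HSA-LR mice. This difference was -1.524 for Dkk3, a secreted protein related to Wnt antagonists (adjusted P = 0.0151), whose log2 FC was -1.21 in WT and 0.31 in HSA-LR mice. Dkk3 measured 22.2, 26.1 and 5.59 CPM in WT gastrocnemius and 52.7, 60.7 and 12.6 CPM in WT quadriceps, and from 2.20 to 3.08 CPM in the 6 muscles of HSA-LR mice. It was thus lower in every HSA-LR muscle than in any WT muscle, and mouse 3 was the lowest WT mouse in both muscles.

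For Dusp14, a phosphatase, the difference was 1.098 (adjusted P = 0.0265), with 8.68, 8.13 and 10.3 CPM in WT gastrocnemius and 4.93, 5.28 and 5.87 CPM in WT quadriceps, and 5.47, 4.78 and 5.23 CPM against 6.86, 5.92 and 6.93 CPM in HSA-LR mice. The order of the muscles was opposite in the 2 groups of mice.

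For Irx5 the difference was 7.002 (adjusted P = 0.0265), from a log2 FC of 4.04 in WT and -2.96 in HSA-LR mice, where no muscle was above 0.399 CPM. For Serpinb1a, a protease inhibitor, it was 1.546 (adjusted P = 0.0265). Serpinb1a measured 6.99, 6.48 and 8.49 CPM in HSA-LR gastrocnemius and 15.2, 15.5 and 21 CPM in HSA-LR quadriceps, while the WT log2 FC was 0.32. For Ppp1r1a, a phosphatase inhibitor, the difference was -1.021 (adjusted P = 0.0458), with 52.6, 57.3 and 78.5 CPM in WT gastrocnemius and 51.0, 49.5 and 84.5 CPM in WT quadriceps, and 45.8, 35.2 and 44.0 CPM against 21.8, 18.5 and 19.0 CPM in HSA-LR mice. The WT muscles overlapped for Serpinb1a and Ppp1r1a, and the HSA-LR muscles did not. In treated mice, which were in the fit but not in this contrast, the log2 FC was -0.09 for Dkk3, 0.55 for Dusp14, 0.96 for Irx5, -0.25 for Serpinb1a and 0.61 for Ppp1r1a.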

How the results depend on the processing

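The 258 genes called between WT gastrocnemius and WT quadriceps became 21 without the mouse as a block, and from 20 to 1065 when 1 mouse was left out, the 20 without mouse 2 and the 1065 without mouse 1. They became 516 with every gene that had at least 1 count in any library and 783 with DESeq2, while 7 further settings gave 192 to 322. Without the pairing, HSA-LR mice gave 357 genes in place of 1060 and treated mice 238 in place of 1501. Leaving out 1 mouse gave 150 to 838 genes in HSA-LR mice, lowest without mouse 2, and 65 to 1182 in treated mice, lowest without mouse 3. The 5 interactions of WT with HSA-LR mice became 0 without the block, 14 with upper-quartile normalization and 0 to 12 when 1 mouse was left out, and the 0 interactions with treated mice became 0 to 5. The 61 exon bins became 29 to 1486 when 1 mouse was left out and 52 to 84 under the other settings. Of the 85 named genes that were called, 14 kept the call without the block, 85 without mouse 1, 14 without mouse 2 and 33 without mouse 3. Of the 12 named bins, 11 kept it without the block. With 1 mouse left out, the log2 FC of 8 genes spanned 0, called only for Myh4 without mouse 1, reversing without mouse 1 for Tnnt3 (-0.058 to 0.128), Ryr1 (-0.011 to 0.146), Hadha (-0.411 to 0.069), Atp5b (-0.159 to 0.0018) and Myh1 (-0.477 to 0.069), and without mouse 2 for Myh4 (-0.273 to 0.014), Hoxc4 (-0.053 to 0.0050) and Ppp1r1a (-0.018 to 0.128). The cause of these changes was not tested. The number of pairs and the depth both limit the precision, and genes with few counts, such as Isl1, Gp6 and Elovl3, have wide intervals.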
